A study of Bos taurus with 9 samples.

Results

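The genes of the cytoskeletal motors were followed in bovine oocytes that had matured to metaphase II, the stage at which meiosis pauses until fertilization. Members were taken by symbol: the kinesins (KIF and KIFC), the myosins (MYO followed by a class number) and the cytoplasmic dynein subunits (DYNC and DYNL). Of 17852 genes in the deposited table, 83 met that rule, with 41 kinesins, 19 dynein subunits and 23 myosins. Axonemal dyneins (DNAH and DNAI) and the heavy chains of muscle and nonmuscle myosin II (MYH) carry other names and were not members. RNA was sequenced in 9 libraries, in 3 groups of 3: control oocytes (Con1 to Con3), oocytes treated with microplastics (MPs1 to MPs3) and oocytes that received taurine, a sulfur-containing amino acid, on top of microplastics (Tau1 to Tau3). All were labelled as female germ cells, and the sources used here give no strain, animal age, particle size, dose, exposure time or number of oocytes in a library. Whether the 3 libraries of a group stem from different animals or cultures is not stated either. The p-values below therefore weigh group differences only against the scatter of these libraries, and that scatter may be technical.

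Motor proteins turn ATP hydrolysis into steps along a filament. Kinesins mostly walk toward the plus ends of microtubules, cytoplasmic dynein 1 carries cargo toward the minus ends together with its partner complex dynactin, dynein 2 works inside cilia, and myosins move on actin. A metaphase II oocyte depends on kinesins, dynein 1 and myosins. Kinesins and dynein 1 build and focus the meiotic spindle. Myosins take part in placing the spindle near the cortex, in moving vesicles and in extruding the polar body.

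Libraries held 21.17 to 22.74 M estimated reads. TMM factors, the scaling that edgeR applies for library composition, ranged over 0.835 to 0.972 in Con1 to Con3, 1.214 to 1.253 in MPs1 to MPs3 and 0.841 to 0.958 in Tau1 to Tau3. On the first principal component the microplastics libraries lay together, at 44.7 to 60.8. Con3 lay at -4.9, beside Tau1 and Tau2 (7 and -3.4), and Tau3 lay at -51, beside Con1 and Con2 (-57 and -50.6), so leading counts are also given without Con3 and Tau3. All 12 oocyte markers were in the table, and with microplastics 2 rose and 7 fell. Rises and falls here are at an adjusted p under 0.05 in edgeR, which 9.68% (higher) and 14.7% (lower) of all tested genes passed. They summed to between 92997.4 and 122040.7 CPM (counts scaled to a common library size, here with TMM) in control, 40993.1 and 49086.8 with microplastics, and 85448.3 and 112036.7 with taurine. Cumulus and granulosa markers, for the somatic cells around the oocyte, summed to 511 to 612, 419 to 519 and 517 to 568 CPM. Of 12 tested, 5 fell with microplastics and none rose, and the follicle-stimulating hormone receptor FSHR had at most 3 counts in any library. The list of axonemal and ciliated cell genes summed to 306 to 324, 267 to 291 and 255 to 341 CPM, most of it DNAH11, and RSPH1, DNAI2 and CAPS had at most 3 counts. Markers of leukocytes, endothelium, erythroid cells and stroma or muscle each summed to between 7 and 68.3 CPM in any library, and with microplastics 1 of 4 leukocyte and 2 of 2 erythroid genes tested fell and 1 of 4 of stroma or muscle rose. Of the 3 endothelial genes tested, 0 passed edgeR's adjusted threshold and 1 had an unadjusted p under 0.05. With scaling by library size only, 0 leukocyte genes and 1 erythroid gene fell, and 1 endothelial gene rose. Over all tested genes that scaling gave 30.3% higher and 6.63% lower. The part of these shifts in the results below was not tested. In bulk RNA, fewer cells of a type and less RNA in each cell cannot be told apart.

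Levels between genes were compared as the authors' TPM values, which divide by transcript length. Dynein light chains stood at the top in control oocytes. DYNLL1, a light chain shared by dynein and many other complexes, was at 1013.7 ± 312 TPM (SD, n = 3), and DYNLT1, of the second light chain family, at 877 ± 161 TPM, with overlap between them. The intermediate chain DYNC1I2 followed at 442 ± 54.5 TPM. DYNC2LI1, the light intermediate chain of dynein 2, was at 217 ± 87.5 TPM. Far below them was DYNC1H1, the heavy chain that holds the dynein motor itself, at 0.543 ± 0.263 TPM.

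Spindle kinesins led their class. KIF20B, a cytokinesis kinesin, was at 175 ± 5.6 TPM in control, KIF18A, which dampens chromosome movements on the spindle, at 142 ± 34.7 TPM, and KIF23, the motor of the centralspindlin complex, at 117 ± 25.7 TPM. KIF3A, of the heterotrimeric kinesin 2, was the highest transport kinesin at 91.6 ± 27.4 TPM. KIF11, the plus-end motor that pushes spindle poles apart, was at 7.54 ± 1.79 TPM. Ranges over the control libraries overlapped between KIF20B and KIF18A and among KIF18A, KIF23 and KIF3A. Within each control library KIF18A was above KIF23, and KIF23 above KIF3A. KIF20B was above KIF18A in Con1 and Con2 but below it in Con3 (170 against 182 TPM), so the order of that pair is not settled. Among the myosins, MYO1D was at 8.16 ± 1.44 TPM, MYO5B at 5.96 ± 2.14 and MYO1E at 5.93 ± 1.99 TPM, and these 3 overlapped in their spread. Within each control library MYO1D was above both MYO5B and MYO1E.

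**Figure D1:**
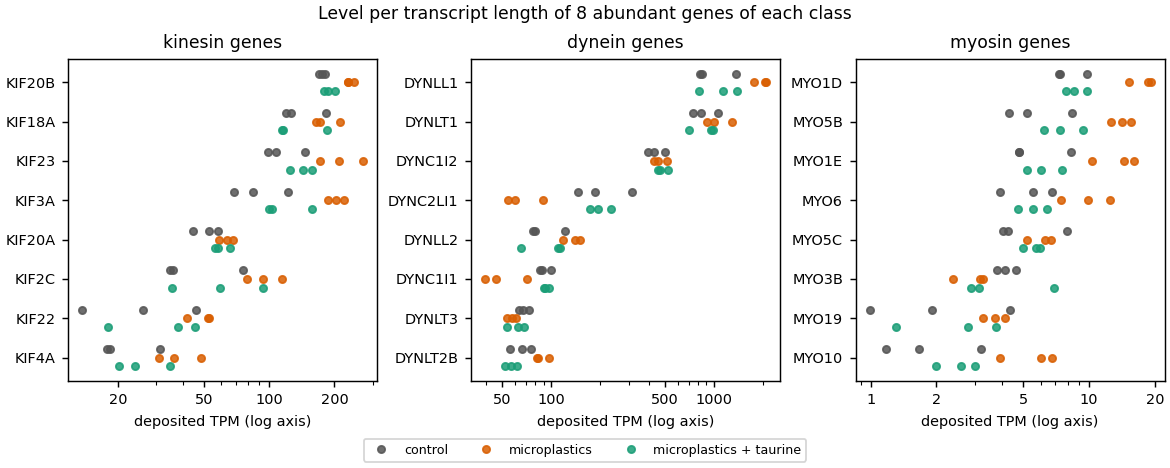
Deposited TPM (log axis) of 8 abundant genes of each motor class, with 1 point for each library in the 3 groups. DYNLL1 and DYNLT1 lead the dyneins and KIF20B the kinesins. TPM carries no TMM scaling, and microplastics points lie farther right here than in TMM-scaled CPM, where KIF20B, KIF18A, KIF20A and DYNLT1 have lower means with microplastics than in control.

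Exposed oocytes were first set against control oocytes, to ask how the motor genes differ after exposure. Of the 83 motor genes, 71 had enough reads to be tested. Levels are TMM-scaled CPM, fold changes are on the log2 scale with their SE, and a gene was called at a Benjamini-Hochberg adjusted p under 0.05 in edgeR's quasi-likelihood test over all 13206 tested genes. Among the motor genes 12 were higher with microplastics, 6 were lower and 53 did not pass. That is 25.4% called, against 24.3% of all tested genes (9.68% higher and 14.7% lower). The share called was thus close to the background. The median change of the 71 was 0.29, against 0.04 over all tested genes. By class, 4 kinesins rose and 1 fell of 35 tested, 3 dynein subunits rose and 4 fell of 17, and 5 myosins rose and 1 fell of 19.

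The 12 rises came down to 3 without Con1, 4 without Con2, 6 without MPs1, 7 without MPs2 and 3 without MPs3, and the 6 falls to 3 without MPs1. Without Con3 and Tau3 together, 24 motor genes were higher and 8 lower, against 19.5% and 18.6% of all tested genes. When libraries were scaled by size alone, the median over all tested genes went from 0.04 to 0.52 and that of the motor genes from 0.29 to 0.77, and there were 35 higher and 2 lower motor genes (30.3% and 6.63% of all genes). None of the 18 called genes changed sign under that scaling, and the 2 still called lower were DYNC1I1 and DYNC2LI1. With each transcript tested on its own, 8 of 89 motor gene transcripts were higher and 7 lower, against 5.46% and 10.4% of all 15609 tested.

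Dynein 1 was the motor in which every subunit outside the light chains passed the test, and its subunits moved in opposite directions. With TMM scaling the heavy chain and both light intermediate chains rose, and both intermediate chains fell. DYNC1H1 (NCBI gene 537748) was at 5.39, 6.92 and 10.6 CPM in the control libraries and at 16.3, 14.9 and 17.2 with microplastics. The groups did not overlap, with Con3 the highest control. The change was 1.07 ± 0.27 on the log2 scale (adjusted p = 0.0144), about 2.1-fold. It missed the threshold without Con1 (0.87), Con2 (1.00) or MPs3 (1.04).

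The light intermediate chains tether dynein to its cargo adaptors. DYNC1LI1 went from 132, 107 and 138 CPM in control to 165, 200 and 257 with microplastics (log2 0.72 ± 0.21, adjusted p = 0.0299). DYNC1LI2 went from 10.4, 14.5 and 24.9 to 42.6, 32.2 and 58.1 CPM (1.41 ± 0.35, adjusted p = 0.0139). In both genes every microplastics library was above every control library, and MPs3 was the highest. DYNC1LI1 lost its call without Con1 (0.75), Con2 (0.61), MPs2 (0.76) or MPs3 (0.55), and with the replicate number as a block (0.72). DYNC1LI2 lost it without Con1 (1.16), Con2 (1.32) or MPs3 (1.18).

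The intermediate chains are the arms through which dynein holds dynactin. DYNC1I1 (NCBI gene 613724) was at 231, 215 and 211 CPM in control and at 61.8, 75.4 and 108 with microplastics. All microplastics libraries were under the lowest control, although MPs3 kept more than the other two. The level fell by 1.42 on the log2 scale (SE 0.20, adjusted p = 0.000636), and the call held in every alternative fit. DYNC1I2, the more abundant of the pair, was at 1000.5, 1036.5 and 1017 CPM in control libraries and at 680, 677 and 754 in exposed ones. The groups stood apart with little spread, and the change was -0.53 ± 0.14 (adjusted p = 0.0173). That call was lost without Con2 (-0.52), MPs1 (-0.49) or MPs2 (-0.49) and with scaling by library size only (-0.05). In deposited TPM, DYNC1I2 was at 442 ± 54.5 in control and 465 ± 45.7 with microplastics, so its fall depended on the scale.

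Dynein 2 drives return transport in cilia, and 1 of its 4 subunits outside the light chains, all tested, was called. DYNC2LI1 (NCBI gene 507311), its light intermediate chain, was at 412, 235 and 154 CPM in control and at 69.2, 44.3 and 44.9 with microplastics. Control libraries differed from each other by more than in the other dynein genes described so far, yet all stayed above the microplastics libraries. The level fell by 2.34 on the log2 scale (SE 0.32, adjusted p = 0.00048), which is 5.06-fold lower, and the call held in every alternative fit. The heavy chain DYNC2H1, at 12.1 ± 0.858 CPM in control, had 14.8 ± 1.04 CPM in exposed oocytes (log2 0.29, adjusted p = 0.409). DYNC2I1 and DYNC2I2 had means under 2 CPM in both groups and did not pass.

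Of the 8 light chain genes tested, 1 fell and none rose. DYNLT3, a light chain of the DYNLT1 family, was at 135, 138 and 125 CPM in control and at 72.6, 71.1 and 74.9 with microplastics. Both groups were tight and far apart. The change was -0.86 ± 0.16 (adjusted p = 0.00263), and it lost its call with scaling by library size only (-0.38) and where at least a 2-fold change was required. Its relative DYNLT1 had 422 ± 96 CPM in control oocytes and 333 ± 63.5 in exposed ones (adjusted p = 0.276). DYNLL1, at 409, 400 and 543 CPM in control and 606, 541 and 594 with microplastics, was at 0.37 ± 0.19 on the log2 scale (adjusted p = 0.172), and Con3 reached into the microplastics range. It was called after removal of the length trend (0.81), under scaling by library size only (0.83) and without Con3 and Tau3 together (0.54). Its near copy DYNLL2 was at 207 ± 28.5 and 202 ± 16.2 CPM (-0.04 ± 0.19, adjusted p = 0.904). The roadblock chains DYNLRB1 and DYNLRB2 did not pass (-1.30, adjusted p = 0.0917, and -0.97, adjusted p = 0.0801). For DYNLRB1, Con1 stood at 49.4 CPM beside 14.1 and 11.3 in the other controls. How reads were shared between near-identical copies, and whether counting used strand, is not given, so values of such pairs are uncertain.

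**Figure D2:**
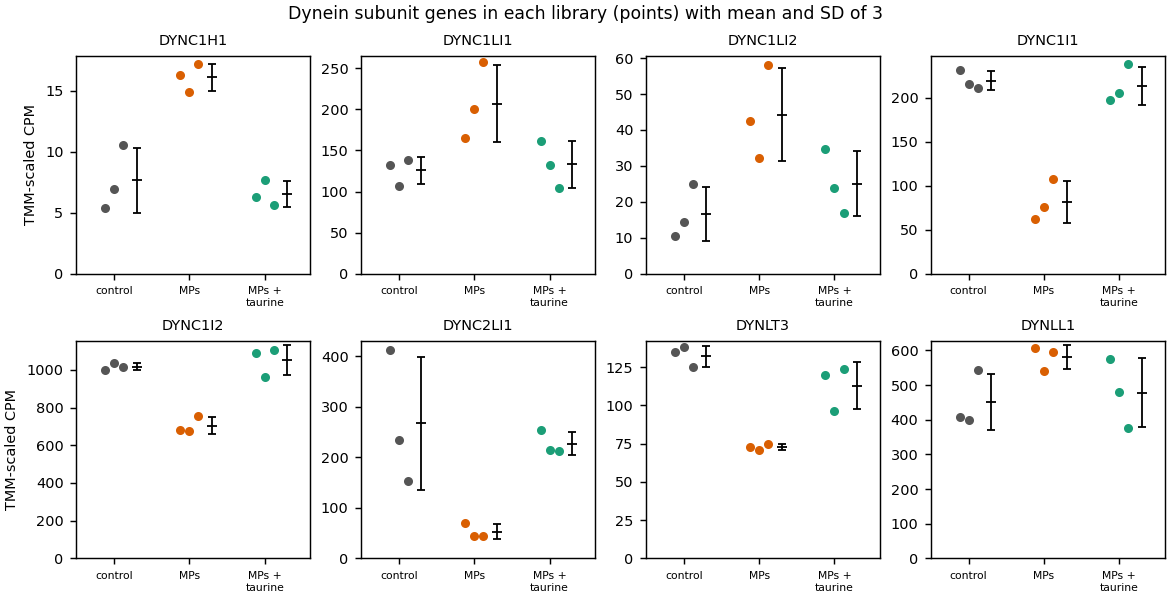
TMM-scaled CPM of 8 dynein subunit genes, with 1 point for each library and the mean with SD of 3 libraries beside each group. DYNC1H1, DYNC1LI1 and DYNC1LI2 are higher with microplastics, and DYNC1I1, DYNC1I2, DYNC2LI1 and DYNLT3 are lower. DYNLL1 overlaps between control and microplastics. On scaling by library size only the same 7 genes keep these signs, but of the lower genes only DYNC1I1 and DYNC2LI1 stay called. In TPM, DYNC1I2 has means of 442 in control and 465 with microplastics.

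The deposited libraries gave dynein genes as a class 3021.8, 2942.2 and 2867.7 CPM in control, 2379.6, 2226.1 and 2454.9 with microplastics and 3023.7, 2844.8 and 2875 with taurine. The direction of this sum depended on the scale. The log2 ratio of microplastics to control means was -0.32 in TMM-scaled CPM, 0.16 in CPM by library size and 0.46 in TPM. Kinesins summed to 3052.4 ± 187, 3303.9 ± 260 and 3288.5 ± 334 CPM in control, microplastics and taurine, and myosins to 549 ± 48.3, 677 ± 74.4 and 569 ± 67.2 CPM. KIF20B supplied 29.0% of the kinesin sum.

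Among kinesins of the spindle and of cell division, 2 of 14 rose with microplastics, none fell, and the median change was 0.22. KIF14, a kinesin of the central spindle and midbody, was at 11.8, 10.4 and 17.2 CPM in control and at 37.7, 27.5 and 32.3 with microplastics. Every exposed library was above every control, and the log2 change of 1.31 ± 0.25 (adjusted p = 0.00319) was called in every alternative fit. KIF15, a kinesin that can stand in for KIF11 in keeping the spindle bipolar, went from 49.8, 59.3 and 61.3 to 91.2, 72.8 and 87.7 CPM. Its groups did not overlap either, and the change was 0.56 ± 0.16 (adjusted p = 0.0276). This smaller rise was lost without Con1 (0.48), Con2 (0.59), MPs1 (0.52) or MPs3 (0.55), with the replicate block (0.56) and with the length trend removed (0.33).

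The best known spindle kinesins did not pass. KIF11 had 27.5 ± 3.22 CPM in control oocytes and 29.9 ± 5.81 in exposed ones (0.12 ± 0.20, adjusted p = 0.696). KIF20B was at 965 ± 131 and 844 ± 23.1 CPM (-0.19, adjusted p = 0.395), KIF18A at 432 ± 50.9 and 368 ± 43.1 (-0.23, adjusted p = 0.40), and KIF23 at 374 ± 35.3 and 458 ± 88.3 (0.29, adjusted p = 0.219). In these 4 genes the libraries of the groups overlapped. KIF20A, which carries the chromosomal passenger complex to the central spindle, was at 164, 133 and 144 CPM in control and 126, 114 and 115 with microplastics. Its libraries did not overlap, but the change of -0.31 ± 0.17 missed the threshold (adjusted p = 0.187) and was 0.17 with scaling by library size only. The microtubule depolymerase KIF2C was at 128 ± 44 and 168 ± 24.7 CPM (adjusted p = 0.36). KIFC1, the minus-end kinesin that bundles spindle microtubules, was at 18.6 ± 6.77 and 17.6 ± 1.17 CPM (adjusted p = 0.872). Con3 was the highest control library for both KIF2C (179 CPM) and KIFC1 (26.5 CPM).

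Of 14 transport kinesins tested, 1 rose and 1 fell, and the median was 0.56. KIF5B, the ubiquitous heavy chain of conventional kinesin, was at 20.3, 32.1 and 42 CPM in control and at 79.9, 58.8 and 80.6 with microplastics. The highest control stayed under the lowest exposed library, and the change of 1.21 ± 0.27 (adjusted p = 0.00846), about 2.32-fold, was called in every alternative fit. KIF1C, a kinesin 3 that carries vesicles, moved the other way, from 12.9, 20.1 and 12.4 to 6.79, 8.55 and 4.57 CPM. Its change was -1.19 ± 0.30 (adjusted p = 0.0135) and was lost without Con2 (-0.94), MPs1 (-1.19) or MPs3 (-0.96) and with scaling by library size only (-0.70). The kinesin 2 pair lay just beyond the threshold. KIF3A went from 259 ± 45.9 to 383 ± 18.3 CPM (0.57 ± 0.19, adjusted p = 0.0508), and KIF3B from 29.1 ± 3.7 to 42.7 ± 7.01 (0.55 ± 0.19, adjusted p = 0.0553), in both without overlap. Outside the spindle and transport groups 1 of 7 kinesins tested passed. KIF19, known from cilia, went from 0.436, 1.8 and 0.953 to 4.3, 3.04 and 2.55 CPM (1.63 ± 0.49, adjusted p = 0.0303). These are low levels, and the call was lost without Con1 (1.26), Con3 (1.57), MPs1 (1.41), MPs2 (1.69) or MPs3 (1.80) and with the length trend removed (1.41).

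Myosins had the highest median of the 3 classes, 0.61, and this was 1.08 with scaling by library size only and 0.35 with the length trend removed. MYO1C (NCBI gene 281937), a class I myosin that links membranes to cortical actin, was at 6.26, 9.57 and 9.06 CPM in control and at 25.7, 22 and 22.6 with microplastics. Both groups were narrow and far from each other. The change of 1.50 ± 0.23 (adjusted p = 0.000949), about 2.82-fold, was called in every alternative fit. MYO3B, a class III myosin with a kinase domain, was the single myosin that fell, from 31.9, 25.1 and 22.8 to 13, 10.3 and 13.1 CPM. No library overlapped, and the change was -1.13 ± 0.30 (adjusted p = 0.0187). It was lost without Con1 (-0.98), MPs1 (-1.17), MPs2 (-1.01) or MPs3 (-1.18) and with scaling by library size only (-0.64).

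The other 4 rises among myosins were weaker calls. MYO9B, a class IX myosin, went from 2.12, 4.33 and 7.63 to 13.7, 9.53 and 9.82 CPM (1.22 ± 0.38, adjusted p = 0.0369). MYO5B, a class V myosin of recycling vesicles, went from 26.7, 30.9 and 41.6 to 57.1, 49 and 50.7 CPM (0.66 ± 0.21, adjusted p = 0.036). MYO5A, a class V carrier of organelles, went from 10.9, 12.4 and 10.8 to 18.5, 16.8 and 20.9 CPM (0.72 ± 0.23, adjusted p = 0.0397). In these 3 genes the groups did not overlap. MYO10, a motor of filopodia that also binds microtubules, was at 10, 13.6 and 21.8 CPM in control and 34, 20.7 and 29.4 with microplastics (0.89 ± 0.29, adjusted p = 0.0438). Con3 was above MPs2, so its groups overlapped.

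Each of these 4 calls was lost when any of several libraries was left out, in some cases with an equal or larger change. MYO9B lost its call without Con1 (0.88), Con2 (1.17), MPs1 (1.05), MPs2 (1.33), MPs3 (1.31) or Tau2 (1.22). MYO5B lost it without Con1 (0.53), Con2 (0.61), MPs1 (0.61), MPs2 (0.72) or MPs3 (0.70). MYO5A lost it without Con1 (0.69), Con2 (0.79), Con3 (0.71), MPs1 (0.75), MPs2 (0.81) or MPs3 (0.65). MYO10 lost it without Con1 (0.66), Con2 (0.81), MPs1 (0.74), MPs3 (0.87) or Tau2 (0.89). All 4 were also lost with the replicate block (1.29, 0.67, 0.72 and 0.90) and with the length trend removed (0.96, 0.42, 0.35 and 0.60). With the most read transcript in place of the gene sum, MYO5A was at 1.70 and MYO10 at 0.91, neither called, and MYO5A was not called without the expression filter either (0.73). MYO1D was at 41.9 ± 2.35 CPM in control oocytes and 60 ± 8.13 in exposed ones, without overlap (0.52 ± 0.18, adjusted p = 0.0581).

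**Figure D3:**
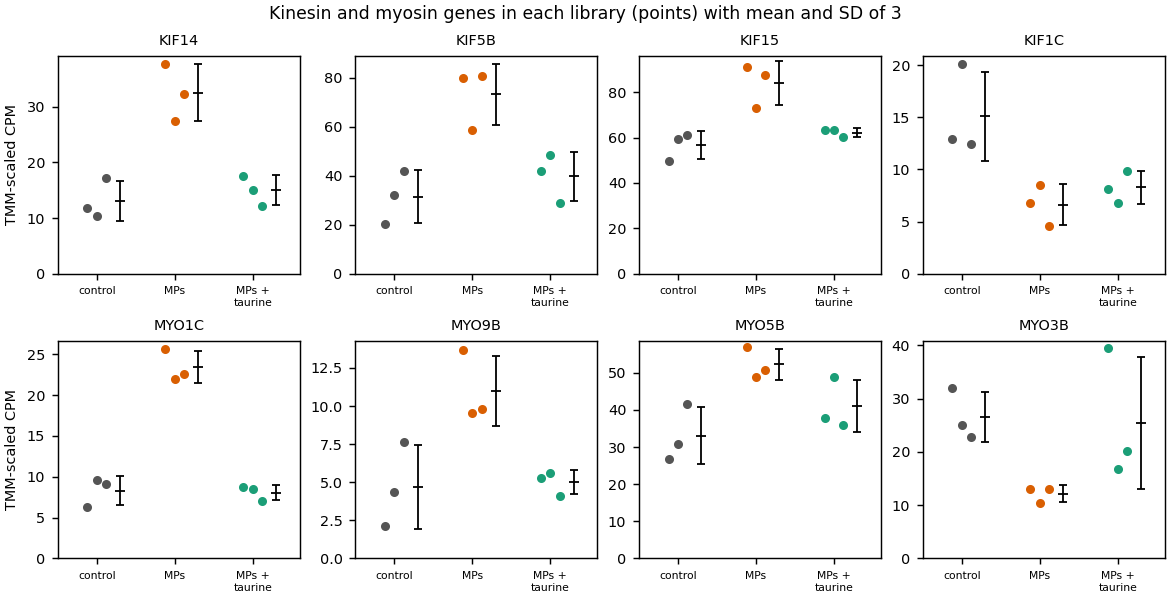
TMM-scaled CPM of 4 kinesin and 4 myosin genes, with 1 point for each library and the mean with SD of 3 libraries beside each group. KIF14, KIF5B, KIF15, MYO1C, MYO9B and MYO5B are higher with microplastics than in control, and KIF1C and MYO3B are lower, with no overlap in any of the 8 panels. KIF1C with taurine stays beside the microplastics libraries.

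Transcript length differed between the motor classes and ran along with the fold change. The length implied by counts and FPKM had a median of 3543 nt in kinesins, 1598 nt in dynein subunits, 6307 nt in myosins and 1905 nt over all tested genes that had one (61 of the 71 tested motor genes). In the longest of 5 equal length classes, of median 4709 nt, the median change of all genes was 0.27, and in the shortest, of 691 nt, it was -0.37. That longest class held 34 motor genes, 17 of them kinesins and 15 myosins, with a median of 0.50, while 6 dynein genes were in the shortest, with a median of -0.29. With a smooth trend on length removed in each library, 6 motor genes were higher and 7 lower (8.06% and 13.9% of all genes), with a motor gene median of 0.17. Those higher were KIF14, KIF5B, MYO1C, DYNC1LI1, DYNC1LI2 and DYNLL1, and DYNC1H1, the longest dynein gene, was at 0.70 and no longer called. Those lower were the 6 found before and MYO5C (-0.41 ± 0.21 and not called without this step). What makes fold change run with length was not tested.

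**Figure D4:**
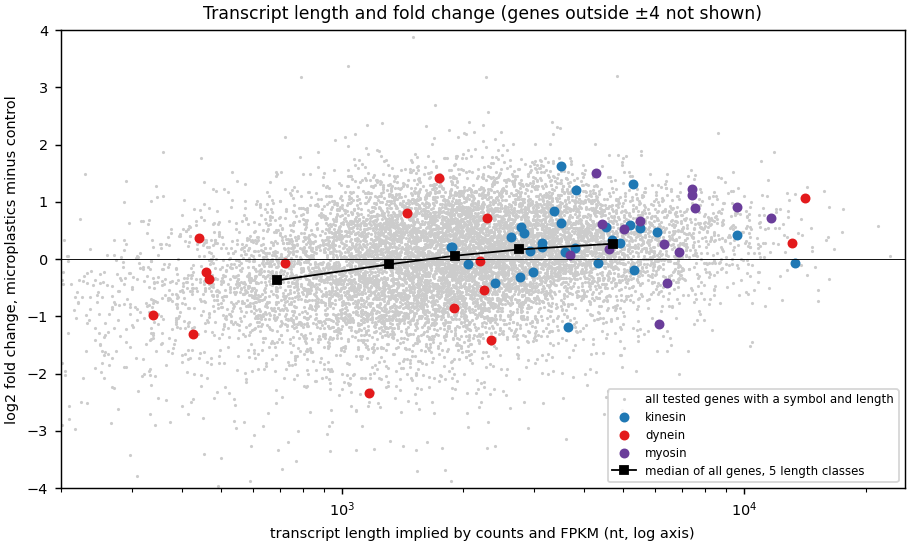
Log2 fold change, microplastics minus control (vertical), against transcript length in nt (log axis) for tested genes with a symbol and a length, motor genes coloured by class, and the median of all genes in 5 length classes as squares. The squares climb from -0.37 to 0.27, and most myosins and kinesins lie on the long side while 6 short dynein genes lie at the left.

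Genes that work with the motors were read from lists, their counts beside 9.68% higher and 14.7% lower over all tested genes. Of 11 dynactin genes tested, 2 rose and 4 fell, with a median of -0.47. CAPZA1, which caps the actin-like filament of dynactin as well as actin itself, fell from 1490 ± 119 to 633 ± 40.8 CPM (-1.24, adjusted p = 0.000532), and DCTN6, of the pointed end, fell from 108 ± 58.9 to 24.9 ± 1.09 (-2.12, adjusted p = 0.00124). DCTN5 and ACTR10, named after their values were seen, fell too (-1.20 and -1.25). ACTR1A, the subunit that forms the filament, rose from 10.3 ± 2.48 to 20.1 ± 1.05 CPM (0.97, adjusted p = 0.0149), a call lost without Con2 (0.81) or MPs3 (0.94). DCTN4 rose (0.76, adjusted p = 0.0494), a call lost without Con1 (0.58), Con2 (0.66), MPs1 (0.91), MPs2 (0.76), MPs3 (0.65) or Tau2 (0.76).

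Of 18 dynein adaptors and regulators tested, 5 rose and 1 fell, with a median of 0.30. CCDC88A, also called girdin, rose from 57.5 ± 8.28 to 125 ± 16.7 CPM (1.12, adjusted p = 0.0021), and HOOK1, an adaptor that joins dynein to dynactin, from 28.5 ± 0.504 to 52.3 ± 8.36 (0.87, adjusted p = 0.00826). SPDL1, which brings dynein to kinetochores, fell from 150 ± 20.7 to 82.5 ± 10.9 CPM (-0.86, adjusted p = 0.0212), a call lost without Con1 (-0.80), MPs1 (-0.81) or MPs2 (-0.78) and when scaled by library size only (-0.39). Among 15 kinesin partners 2 rose and 1 fell, with a median of 0.29. The scaffolds MAPK8IP3 (1.28, adjusted p = 0.0237) and MAPK8IP2 (1.32, adjusted p = 0.0239) rose. MAPK8IP3 lost its call without Con1 (1.07), Con2 (1.10), MPs1 (1.25), MPs2 (1.31) or MPs3 (1.32), and MAPK8IP2 without Con1 (1.13), MPs1 (1.14) or MPs2 (1.30).

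Myosin II and its regulators had 4 rises and 4 falls of 13 tested, with a median of 0.37. The regulatory light chains MYL12B, from 192 ± 14.6 to 91.8 ± 19.7 CPM (-1.06, adjusted p = 0.00163), and MYL12A, from 496 ± 76.2 to 236 ± 6.12 CPM (-1.07, adjusted p = 0.00477), fell. The myosin phosphatase subunits MPRIP, from 15 ± 3.66 to 33.4 ± 6.46 CPM (1.15, adjusted p = 0.00537), and PPP1R12A, from 51.1 ± 18.2 to 117 ± 14.9 (1.19, adjusted p = 0.00975), rose, PPP1R12A losing its call without Con1 (1.04). Of 12 tubulins tested, 1 rose and 1 fell. TUBA1C rose from 939 ± 27.4 to 1511.8 ± 211 CPM (0.69, adjusted p = 0.00809). TUBA1B fell to 82.1 ± 10.5 from a scattered control level of 325 ± 275 CPM (-1.99, adjusted p = 0.0106, and -1.02 without Con1), and reads of such near-identical tubulins may have been divided between them.

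Next, exposed oocytes that received taurine were set against exposed oocytes without it. It shares the microplastics libraries with the first, so values of both are set side by side and no overlap between them is read. Of 71 tested motor genes 5 were higher with taurine than with microplastics alone and 3 were lower, which is 11.3% called against 14.2% of all tested genes (10.1% higher and 4.13% lower). The motor genes' share was somewhat under the background. Their median change was -0.23, against -0.02 over all genes. By class, 4 dynein subunits rose and 1 fell of 17, 1 kinesin fell of 35, and 1 myosin rose and 1 fell of 19. Without MPs1 or MPs2 the 5 rises came down to 2, and without MPs3 to 3. The 3 falls became 5 without Con1 or Con3 and 6 without Tau1. Leaving out Con3 and Tau3 together gave 7 higher and 5 lower (9.09% and 4.15% of all genes), and scaling by library size only gave 2 higher and 27 lower (4.55% and 18.8%), with medians of -0.45 over all genes and -0.66 over the motor genes. With the length trend removed the motor gene median was -0.11. Of the 89 transcripts of motor genes tested on their own, 4 were higher and 3 lower, against 6.88% and 2.27% of all. Markers moved in this comparison too: with taurine 5 oocyte markers were higher and 2 lower of 12, 4 of 12 cumulus and granulosa genes were higher, 1 of 2 erythroid genes was higher and 1 of 13 axonemal and ciliated cell genes was lower. Their part in these results was not tested.

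Dynein genes were most of those called. DYNC1I1 stood at 197, 205 and 238 CPM with taurine, against 61.8 to 108 with microplastics alone (1.38 ± 0.20, adjusted p = 0.00108). DYNC2LI1 stood at 253, 215 and 213 CPM, against 44.3 to 69.2 (2.10 ± 0.32, adjusted p = 0.00126). Every taurine library was above every microplastics library for both genes, and both calls held in every alternative fit. DYNC1I2 was at 1092.3, 963 and 1104.6 CPM with taurine (0.58 ± 0.14, adjusted p = 0.0165), a call lost without MPs1 (0.54) or MPs2 (0.54) and with scaling by library size only (0.15). DYNLT3 was at 120, 96.1 and 124 CPM (0.64 ± 0.16, adjusted p = 0.019), lost without MPs1 (0.62), MPs2 (0.60), MPs3 (0.64) or Tau3 (0.57) and with scaling by library size only (0.20). Neither gene's taurine libraries overlapped the microplastics libraries. In the opposite direction DYNC1H1 was at 6.32, 7.67 and 5.64 CPM with taurine, all under the microplastics range of 14.9 to 17.2 (-1.30 ± 0.27, adjusted p = 0.00835), and this call held in every alternative fit.

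The light intermediate chains did not pass. DYNC1LI1 was at 162, 132 and 104 CPM with taurine (-0.64 ± 0.21, adjusted p = 0.0646), every value under the microplastics range, and DYNC1LI2 at 34.6, 23.9 and 16.9 CPM (-0.82 ± 0.35, adjusted p = 0.142), where Tau1 overlapped MPs2. DYNLL1, at 576, 481 and 377 CPM, was at -0.28 ± 0.19 (adjusted p = 0.343).

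Of the kinesins, KIF14 was lower with taurine, at 17.6, 15.1 and 12.2 CPM against 27.5 to 37.7 in the microplastics libraries (-1.12 ± 0.25, adjusted p = 0.0106), and the call was lost without MPs1 (-1.02). KIF5B, at 41.9, 48.6 and 28.9 CPM, had all taurine libraries under the microplastics range but lay just past the threshold (-0.88 ± 0.27, adjusted p = 0.0507). KIF1C, at 8.17, 6.76 and 9.9 CPM, was the called kinesin of the first comparison with the smallest distance to the microplastics libraries (0.32 ± 0.30, adjusted p = 0.508), and the groups overlapped. KIF20A, at 150, 147 and 193 CPM with taurine, did not overlap the microplastics libraries and did not pass (0.47 ± 0.17, adjusted p = 0.0819). KIFC1, at 34.4, 34.1 and 15.8 CPM, had Tau3 under the other two (0.67 ± 0.31, adjusted p = 0.18) and was called without Tau3 (0.96).

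Among myosins MYO1C was lower with taurine, at 8.74, 8.44 and 7 CPM against 22 to 25.7 (-1.54 ± 0.23, adjusted p = 0.00121), with a wide gap between the groups and a call that held in every alternative fit. MYO3B was higher, at 39.4, 16.7 and 20.2 CPM against 10.3 to 13.1 (1.07 ± 0.30, adjusted p = 0.0347). Here Tau1 stood far above the other two, and the value without it was 0.61 and not called. That call was also lost without MPs1 (1.11), MPs2 (0.95) or MPs3 (1.11) and with scaling by library size only (0.65). MYO9B (-1.14 ± 0.38, adjusted p = 0.0673), MYO10 (-0.61 ± 0.29, adjusted p = 0.187), MYO5A (-0.50 ± 0.23, adjusted p = 0.175) and MYO5B (-0.35 ± 0.20, adjusted p = 0.28) did not pass.

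**Figure D5:**
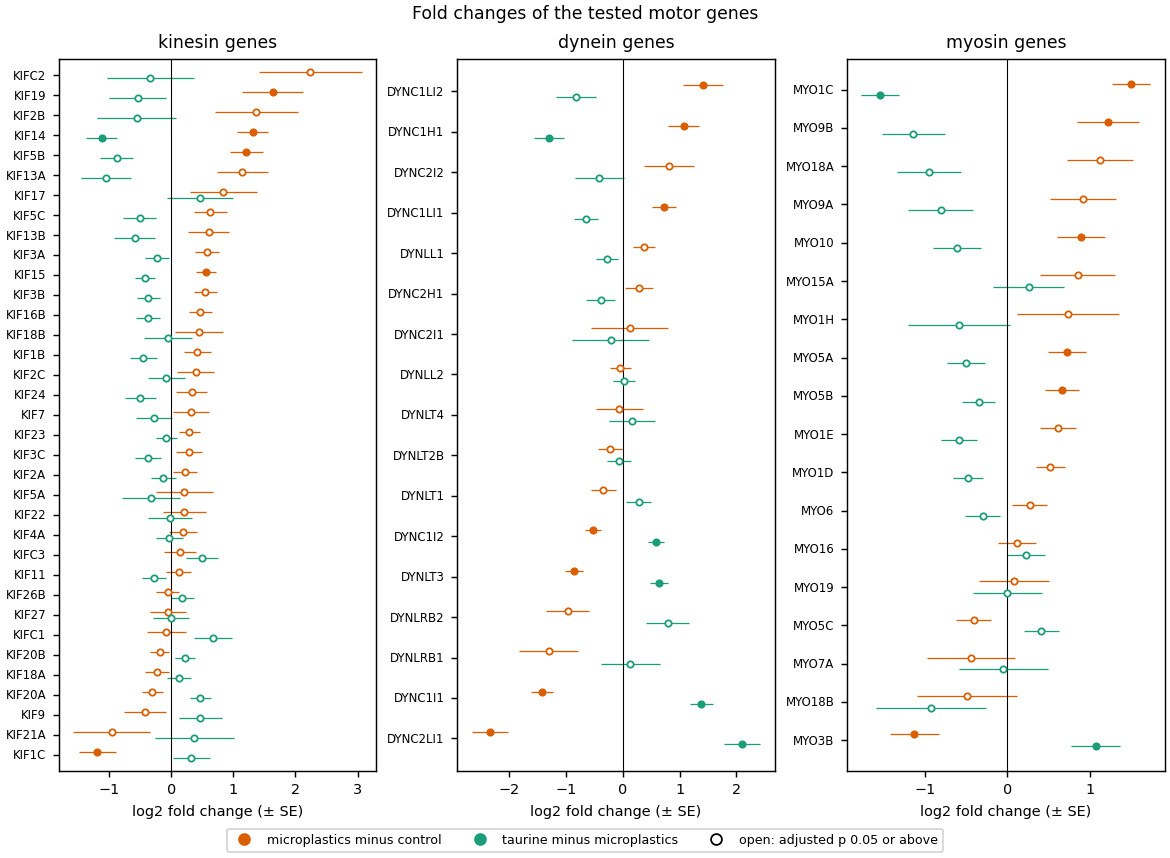
Log2 fold changes with SE of tested motor genes in both comparisons, kinesins, dyneins and myosins in separate panels, filled where the adjusted p is under 0.05. The comparisons share the microplastics libraries. Filled points of microplastics minus control reach from -2.34 (DYNC2LI1) to 1.63 (KIF19), and those of taurine minus microplastics from -1.54 (MYO1C) to 2.10 (DYNC2LI1).

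The third comparison set oocytes given microplastics and taurine against control. No motor gene was called by edgeR, DESeq2 or limma-voom, while 7 of 71 had an unadjusted p under 0.05 in edgeR. Over all tested genes 1 was called (0.00757%) and 753 had an unadjusted p under 0.05. Differences of the motor genes reached from -1.42 to 1.90 on the log2 scale, with a median of 0.08. DYNC1I1 was at -0.04 ± 0.20, DYNC2LI1 at -0.23 ± 0.30, DYNC1H1 at -0.23 ± 0.27, KIF14 at 0.19 ± 0.25 and MYO1C at -0.04 ± 0.23 (each with its SE). KIF1C was at -0.87 ± 0.30, with 15.1 ± 4.28 CPM in control and 8.28 ± 1.58 with taurine (adjusted p = 0.855). A p that misses the threshold does not show equal levels. Without Con3 and Tau3 together, 5 motor genes were higher and none lower, against 4.64% and 1.19% of all genes. They were KIFC1 (1.22), KIFC3 (1.14), KIF18B (1.24), KIF2C (0.88) and DYNC1LI2 (1.23), named here after their values were seen in the case of KIFC3 and KIF18B. Leaving out any 1 library gave no call.

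Of the 83 motor genes, 12 were not tested and had at most 12 counts in any library. These were the kinesins KIF1A, KIF6, KIF12, KIF21B, KIF25 and KIF26A, the light chains DYNLT2 and DYNLT5, and the myosins MYO1A, MYO1F, MYO3A and MYO7B. A count of 3 corresponds to 0.132 to 0.142 CPM in these libraries. These genes were left out by the expression filter, and their differences between groups were not tested.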

How the data were processed

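RNA of bovine metaphase II oocytes was sequenced in 9 libraries, 3 in each of 3 groups. Per the labels, TRIzol was used for total RNA, and library preparation followed the provider's standard protocol. The deposited table has 22590 transcripts with estimated counts, which the authors did not normalize, and, per the file headers, the authors' own FPKM and TPM. In 35.0% of transcripts at least 1 estimated count is not whole. The sources used here do not give the aligner, counting program, genome build, annotation or use of strand, and 21 further numeric columns were left unused. Gene IDs were looked up in a RefSeq table, and 16995 genes (95.2%) received a symbol. It lists 86 genes that meet the rule, and KIF28, MYO15B and MYO1G were not analysed here. No sequence or coordinate is printed.

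Estimated counts were summed for each gene and rounded. Genes were tested with edgeR 4.0.16 in R 4.3.3 by its quasi-likelihood test, with TMM factors, its expression filter, robust fitting of all 9 libraries at once (1 coefficient a group) and Benjamini-Hochberg adjustment across every tested gene. TPM served to compare levels between genes, and the ratio of counts to FPKM (at least 1) gave a transcript length. A floor of 3 counts is 0.132 to 0.142 CPM. It covers counting error only, and no molecular identifiers are mentioned in the sources used here. The fit was also run on simulated counts in which few genes changed, as many up as down. That run does not test the scaling between the groups of these data.

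The text names genes as follows: in each class and comparison up to 8 called members with the smallest adjusted p, the 4 of each class with the highest TPM in control, KIF11, KIF20A, KIF2C, KIF23, KIFC1, KIF5B, DYNC1H1, DYNLL1 and MYO10 whatever their values, up to 2 called members in each direction of each partner list, and both copies of light chain pairs. Some genes that this rule names are not reported here. The members, lists and rule were chosen with earlier results of these data known. A few further genes were named after their values were seen: KIF3B, DYNC2H1, DYNC2I1, DYNC2I2, MYO5C, KIFC3, KIF18B, DCTN5 and ACTR10.

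Alternatives were DESeq2 size factors, scaling by library size only, no filter, limma-voom (limma 3.58.1), the DESeq2 1.42.0 Wald test, at least 5 CPM in 3 libraries, only the groups compared, the replicate number as a block, at least a 2-fold change, a length trend removed, the transcript with the most reads, each library left out, and Con3 and Tau3 left out together. Testing each transcript on its own was added after seeing the data.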

Additional observations from a re-analysis of the deposited data

How the results depend on the processing

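All 18 motor genes called for microplastics minus control kept their sign in every alternative fit, and so did the 8 called for taurine minus microplastics. Counts moved with single libraries. With each library left out in turn, the motor genes called ranged as follows. For microplastics minus control there were 3 to 17 higher and 3 to 8 lower, with 2 to 9 kinesins, 3 to 9 dyneins and 1 to 8 myosins. For taurine minus microplastics there were 2 to 5 higher and 2 to 6 lower, with 0 to 2 kinesins, 3 to 6 dyneins and 1 to 3 myosins.

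Scaling by library size only gave, for microplastics minus control, 35 higher and 2 lower with 16 kinesins and 13 myosins, and for taurine minus microplastics 2 higher and 27 lower with 11 kinesins and 11 myosins. Removing the length trend gave 6 higher, 3 kinesins and 3 myosins in the first comparison and 2 kinesins in the second. Leaving out Con3 and Tau3 together gave 24 higher and 13 kinesins in the first, 5 lower, 3 kinesins and 4 myosins in the second, and 5 higher, with 4 kinesins and 1 dynein, in taurine minus control. At least a 2-fold change left 7 higher, 4 dyneins and 3 myosins in the first and 3 higher and 3 dyneins in the second. In taurine minus microplastics the genes called lower were 6 with at least 5 CPM in 3 libraries, 6 by DESeq2 and 5 with only the groups compared. The kinesins called there were 3 with at least 5 CPM in 3 libraries and 2 each with DESeq2 size factors, no filter, DESeq2, limma-voom and only the groups compared. The cause of these changes was not tested. Each transcript tested on its own gave 8 higher and 7 lower of 89 in the first comparison and 4 and 3 in the second.

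With the replicate number as a block, motor genes called higher with microplastics went from 12 to 7 and myosins from 6 to 2. Deviations from the group means were correlated between libraries of different groups. Same-numbered libraries gave -0.441 to 0.261 (9 pairs, 2 above 0.1). Differently numbered ones gave -0.306 to 0.392 (18 pairs, 6 above 0.1). With 3 libraries in a group these values cannot decide whether the numbers pair the libraries.

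Log2 ratios of class sums in CPM by library size and in TPM were 0.59 and 0.74 for kinesins, 0.16 and 0.46 for dyneins and 0.78 and 0.89 for myosins (microplastics minus control), against 0.11, -0.32 and 0.30 with TMM. For taurine minus microplastics they were -0.44 and -0.54, -0.12 and -0.41, and -0.68 and -0.78, against -0.01, 0.31 and -0.25. The dynein sum for taurine minus control was 0.05 in TPM, against -0.01.

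Sign changes fell on genes that were not called in that comparison. Scaling by library size only gave 0.30 for KIF20B, 0.24 for KIF18A, 0.17 for KIF20A, 0.37 for KIFC1, 0.15 for DYNLT1 and 0.43 for DYNLL2 (microplastics minus control), and -0.22 for KIF20B, -0.30 for KIF18A, -0.12 for KIF1C, -0.16 for DYNLT1, -0.40 for DYNLL2 and -0.31 for DYNLRB1 (taurine minus microplastics). Removing the length trend gave 0.11 for DYNLT1 and -0.11 for KIF11 in the first comparison, and -0.05 for DYNLT1, 0.08 for KIF23 and -0.22 for DYNLRB1 in the second. Without Con3 and Tau3 the values were 0.27 for KIFC1 and 0.10 for DYNLL2, and then 0.16 for KIF2C and -0.02 for DYNLRB1. DYNLL2 was also at 0.01 and -0.03 with at least 5 CPM in 3 libraries, -0.01 with limma-voom and -0.01 with the transcript with the most reads. With each library left out, KIFC1 ranged from -0.24 to 0.27 and DYNLL2 from -0.10 to 0.10 in the first comparison, and in the second KIF18A from -0.10 to 0.26, KIF23 from -0.22 to 0.06, KIF2C from -0.45 to 0.17, DYNLL2 from -0.10 to 0.20 and DYNLRB1 from -0.17 to 0.39. Genes near the floor of 3 counts are limited by depth.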

Other observations

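Among the 83 motor genes, 14 had more than 1 transcript model in the deposited table, and the authors' estimated counts were divided among these models unevenly from library to library. For KIF13A, a kinesin 3 of endosomes, the gene sum went from 1.84 ± 0.864 CPM in control to 4.07 ± 0.922 in exposed oocytes (log2 1.14 ± 0.41, adjusted p = 0.0586). One of its models had a mean of 0 reads in control libraries, 52.6 in MPs libraries and 9.11 in Tau libraries and was called when transcripts were tested on their own (edgeR adjusted p = 0.0196), while another had a mean of 19 reads in control and 0 with microplastics and was not called (adjusted p = 0.159). For MYO7A, a class VII myosin of hair cells and epithelia, 1 model fell from a mean of 25.1 to 6.5 reads (log2 -2.39, adjusted p = 0.0258), and the gene sum was at -0.44 ± 0.53 (adjusted p = 0.577). The table does not show whether such shifts follow the transcripts or the assignment of reads to them, and this was not tested. These genes and models were picked after their values were seen.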
